A study of Mus musculus with 9 samples.

Results

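The standard 26S proteasome genes described here are 37 mouse genes for the non-catalytic and regulatory parts of the proteasome and for the factors that assemble it. They were chosen by symbol. They comprise 7 alpha and 4 non-catalytic beta subunits of the 20S core, 6 ATPases, 4 non-ATPase base subunits and 8 lid subunits of the 19S cap, 3 base chaperones and 5 chaperones of 20S assembly. All 37 had a value in both deposited tables, among 15926 genes present in both and 16962 present in either. The measurements came from RNA-seq of 4T1, an established mouse mammary carcinoma line, in 9 libraries. The 3 control libraries (shCTRL) carried a hairpin labelled as a negative control on a wild-type (WT) genotype. Of the knockdown libraries, 3 carried the hairpin shYap-1 and 3 the hairpin shYap-2, both labelled as a Yap knock down, and the study asked which genes change in these cells when Yap, the transcriptional co-activator of the Hippo pathway encoded by Yap1, is reduced. The labels do not say whether the libraries of a group came from separate cultures, so the p-values below measure only the spread between libraries.

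The 26S proteasome degrades proteins that carry ubiquitin chains. Its 20S core is a barrel of alpha and beta rings with the proteolytic sites inside, and the 19S cap binds the ubiquitin chain, removes it, and uses a ring of ATPases to unfold the substrate and feed it into the core. The peptides it releases supply MHC class I molecules, and in mammals the transcription factor NRF1 (gene Nfe2l1) raises the genes of the whole particle together when proteasome activity falls short.

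Levels are in FPKM, the fragments of a gene divided by its transcript length and by the depth of the library. A change is the difference of group means of log2(FPKM + 1). Adjusted p-values come from limma with Benjamini-Hochberg adjustment over all genes tested, and a gene is said to have risen or fallen where the adjusted p is under 0.05. The exact permutation test of 3 libraries against 3 cannot go below p = 0.1, so smaller p-values rest on the model. Both hairpins were compared with the same 3 shCTRL libraries, so the values of the 2 comparisons are not independent.

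Depth, estimated from the values, was 19.55 to 28.35 M fragments per library (M, 10 to the power of 6). Yap1 itself stood at 49.26, 48.31 and 48.81 FPKM in shCTRL, 8.03, 9.05 and 9.23 in shYap-1, and 11.04, 10.37 and 9.79 in shYap-2. It fell by 2.35 on the log2 scale in shYap-1 (adjusted p = 9.3e-07) and by 2.13 in shYap-2 (adjusted p = 4.26e-09), in every knockdown library. All 6 epithelial markers examined (Epcam, Cdh1, Krt8, Krt18, Krt14 and Cldn7) had a mean of at least 1 FPKM in each group, with sums of 1967.92 to 2085.21 in shCTRL, 2371.47 to 2672.04 in shYap-1 and 2436.59 to 2468.18 in shYap-2. None of 5 leukocyte markers with a value (of 6 listed, such as Ptprc and Cd3e) and none of 6 fibroblast and endothelial markers (such as Col1a1 and Pecam1) reached that mean in any group, and the summed levels did not exceed 2.02 and 0.97 FPKM. The part of these levels in the proteasome results was not tested.

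The library of shYap-1 replicate 2 stood apart from its group by the GC content of the transcripts. The GC content of a gene was taken over all its annotated transcripts, and ran from 40.6% to 57.1% in the 37 genes. Across these genes, the deviation of replicate 2 from the mean of the other 2 libraries correlated with GC content at Pearson's r = 0.697 (Spearman's rho = 0.701). That of replicate 1 gave r = -0.718 and that of replicate 3 r = -0.556. These correlations are across genes of the same libraries and carry no test. The deviations of a gene cancel out over the libraries of its group, so the coefficients of the replicates are not independent. The deviations of the 37 genes ran from -0.5566 to 0.5941 in replicate 2. They ran from -0.2824 to 0.342 in replicate 1 and from -0.4201 to 0.2601 in replicate 3. Over all 10733 genes the Spearman coefficients were 0.748, -0.678 and -0.588, so the pattern was not particular to proteasome genes. In the shCTRL and shYap-2 libraries the coefficient r over the 37 genes lay between -0.477 and 0.367. Over all genes, the Spearman coefficients of replicates 1 to 3 were -0.395, 0.005 and 0.401 in shCTRL, and -0.2, 0.096 and 0.095 in shYap-2. The controls shared by both comparisons thus also deviated with GC content. Results with and without shYap-1 replicate 2 are given below, and the part of GC content in them was not tested.

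**Figure D1:**
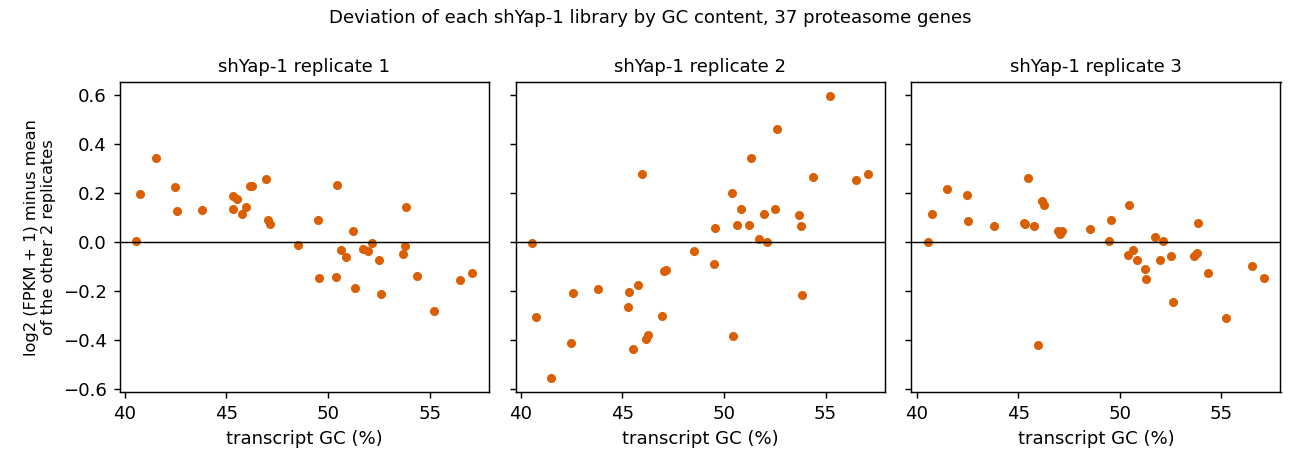
Each point is 1 of the 37 proteasome genes, with the GC content of its transcripts on the x axis. The y axis is its log2(FPKM + 1) in 1 shYap-1 library minus the mean of the other 2. Points rise from left to right in replicate 2 (r = 0.697) and fall in replicates 1 (r = -0.718) and 3 (r = -0.556). The deviations of a gene cancel out over the panels, so the panels are not independent.

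Most standard proteasome genes were higher after Yap knockdown, by small amounts. These are bulk libraries, in which fewer cells with a transcript and less RNA per cell cannot be told apart. In the shYap-1 libraries 20 of the 37 rose and 2 fell. For shYap-2 the counts were 26 and 2. The background was high, since 65.2% of all genes tested passed for shYap-1 (37.6% higher and 27.6% lower) and 73.7% for shYap-2 (43.2% higher and 30.5% lower). The median change of the 37 genes was 0.25 in shYap-1 and 0.22 in shYap-2, against 0.07 and 0.08 over all genes tested. The changes ran from -1.26 (Psmg4) to 0.71 (Psmd4) in shYap-1 and from -1.05 (Psmg4) to 0.64 (Psmd10) in shYap-2. The genes that fell were Psmd14, the deubiquitinase of the lid, and Psmg4, a chaperone of 20S assembly, with either hairpin.

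In values per library, all 3 shYap-1 libraries lay above all 3 shCTRL libraries for 22 of the 37 genes and below them for 2, where 40.5% and 30.6% of all genes did so. In shYap-2 the counts were 26 above and 3 below, against 44.7% and 31.8% of all genes. The third gene below was Psmc4, whose fall did not pass the test (adjusted p = 0.0841). By these values, the share of the 37 genes that was higher was above the background share with each hairpin. The share that was lower was below it. Calls with a change of at least 0.25 were 14 higher and 2 lower in shYap-1, where 35.9% and 26.1% of all genes were. In shYap-2 they were 15 and 2, against 35.9% and 24.3%. With that minimum, the share of rises was thus near the background share.

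**Figure D2:**
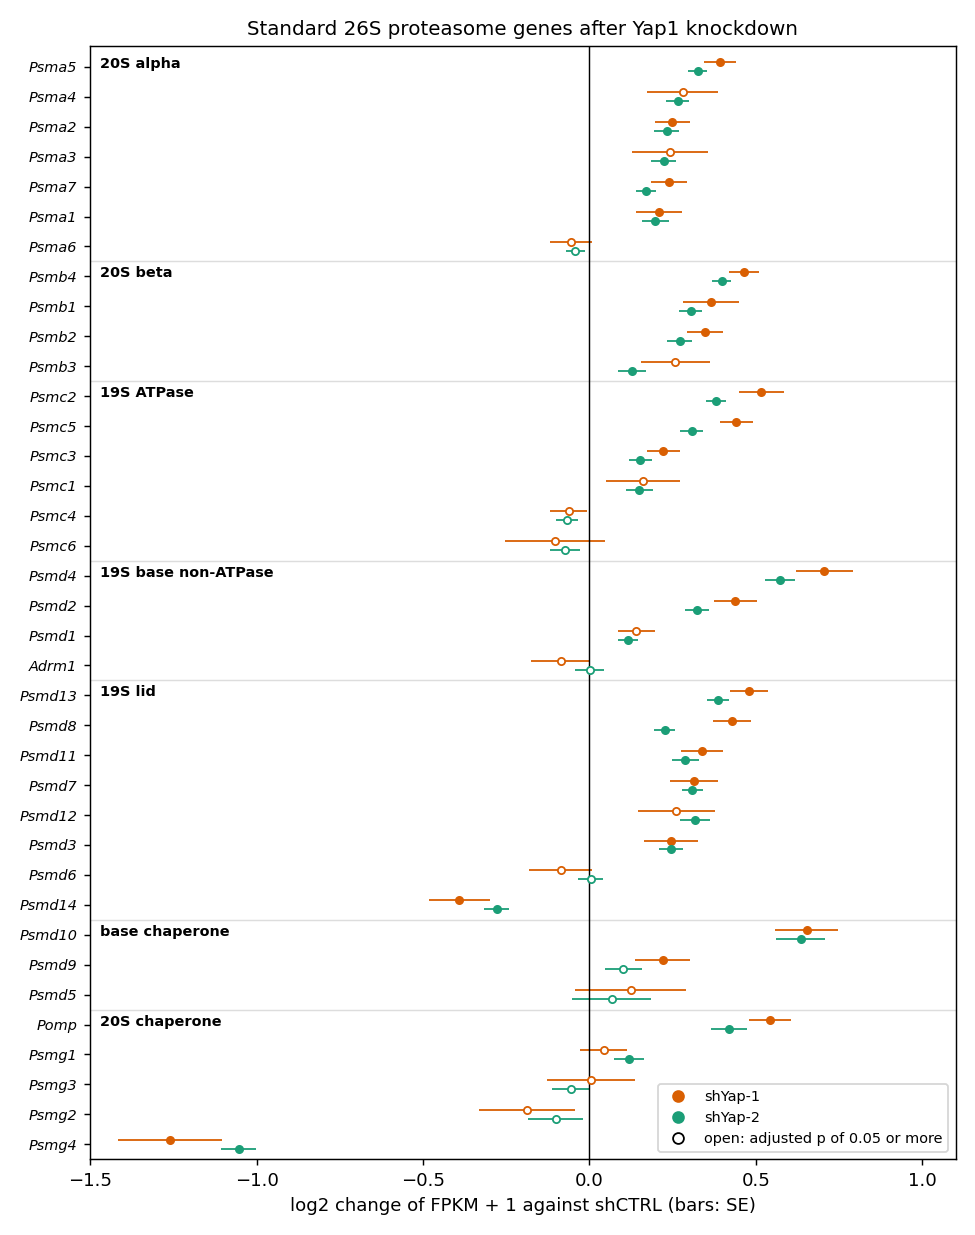
The x axis is the log2 change of FPKM + 1 against shCTRL for each of the 37 genes, grouped by role, with bars for the standard error of the fit and 3 libraries per group. Filled points passed an adjusted p of 0.05: most sit between 0.1 and 0.5 to the right of 0, while Psmd14 and Psmg4 are filled on the left in both colours.

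The balance of rises and falls depended on how libraries were scaled. Scaling by a trimmed mean or by the median of ratios brought the median of all genes to within 0.01 of 0, and gave 15 higher and 2 lower in shYap-1 and 21 higher and 6 lower in shYap-2. All genes moved too: with trimmed-mean scaling 33.2% rose and 32.0% fell in shYap-1, and 37.1% and 36.4% in shYap-2. Of the calls in shYap-2, 77.8% were then higher, against 92.9% without scaling, while over all genes that share was 50.4% against 58.6%. The falls added were those of Psmc4, Psma6, Psmc6 and Psmg3. With a trend on GC content removed from each library, 20 rose and 4 fell in shYap-1, against 36.8% and 35.9% of all genes. In shYap-2, 20 rose and 5 fell, against 37.6% and 36.7% (80.0% of calls higher, against 50.6% over all genes). The added falls were those of Psmc4 and Adrm1 with each hairpin and of Psmg3 in shYap-2. The median change of the 37 genes was 0.161 in shYap-1 and 0.14 in shYap-2 with trimmed-mean scaling. With the median of ratios it was 0.157 and 0.135. With the GC trend removed it was 0.166 and 0.104, against 0.005 and 0.004 over all genes. Without shYap-1 replicate 2, 25 genes rose and 3 fell in shYap-1, where 41.3% of all genes rose and 31.3% fell. The median change of the 37 genes was then 0.28.

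The first 250 bases upstream of the start are shown for 4 genes that mark the range of responses, as in RefSeq on GRCm38.p6 and read 5′ to 3′ on the gene's strand. Psmd4 (ENSMUSG00000005625, chr3:95032694-95042614, minus strand) and Psmc2 (ENSMUSG00000028932, chr5:21785283-21803787, plus strand) are the base subunits with the highest changes in their role groups. Psmd14 (ENSMUSG00000026914, chr2:61711694-61800376, plus strand) and Psmg4 (ENSMUSG00000071451, chr13:34162964-34178173, plus strand) are the genes that fell. Capitals mark matches, on either strand, to 4 motifs: TGACNNNGC, the core of the antioxidant response element that NRF1 and NRF2 bind; CCAAT, the site of NF-Y; CCGGAAG, a site of ETS factors; and CATTCC, the site of the TEAD factors that recruit Yap. The ETS motif and the TEAD motif, the latter read on its other strand, both contain GGAA. The base after it differs, so the same GGAA cannot belong to both. The 4 windows are chr3:95042615-95042864 on the minus strand for Psmd4, and on the plus strand chr5:21785025-21785274 for Psmc2 (the first of 2 RefSeq starts), chr2:61711444-61711693 for Psmd14 and chr13:34162714-34162963 for Psmg4.
Psmd4: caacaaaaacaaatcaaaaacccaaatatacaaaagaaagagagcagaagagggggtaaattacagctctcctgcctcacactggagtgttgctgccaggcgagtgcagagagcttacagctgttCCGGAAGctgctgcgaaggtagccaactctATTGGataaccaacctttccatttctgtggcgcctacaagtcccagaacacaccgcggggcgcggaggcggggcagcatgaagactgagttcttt
Psmc2: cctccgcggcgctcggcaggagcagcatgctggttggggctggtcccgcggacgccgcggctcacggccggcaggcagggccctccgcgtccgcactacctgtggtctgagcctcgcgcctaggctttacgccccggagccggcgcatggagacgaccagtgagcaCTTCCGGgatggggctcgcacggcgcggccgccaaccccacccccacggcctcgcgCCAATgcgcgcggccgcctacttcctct
Psmd14: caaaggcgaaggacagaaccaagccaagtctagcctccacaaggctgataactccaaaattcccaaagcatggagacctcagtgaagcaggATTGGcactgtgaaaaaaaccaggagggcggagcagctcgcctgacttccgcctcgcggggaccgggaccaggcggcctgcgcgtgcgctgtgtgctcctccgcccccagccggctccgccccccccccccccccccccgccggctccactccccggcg
Psmg4: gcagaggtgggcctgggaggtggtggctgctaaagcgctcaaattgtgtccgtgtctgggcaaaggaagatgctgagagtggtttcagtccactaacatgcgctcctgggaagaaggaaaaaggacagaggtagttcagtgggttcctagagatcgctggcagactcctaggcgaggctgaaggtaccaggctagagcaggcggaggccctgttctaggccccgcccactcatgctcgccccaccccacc
Upstream of Psmd4 stand 1 ETS motif and 1 CCAAT box, read there as ATTGG on the other strand, and upstream of Psmc2 likewise 1 of each. The Psmd14 stretch holds 1 CCAAT box, and in that of Psmg4 none of the 4 strings occurs.

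RefSeq windows of 300 bases, 250 before and 50 after the start, were at hand for 31 of the 37 genes. The ETS motif was in 13 of them (41.9%), against 20.5% of the windows of 8489 genes tested and 9.1% of 27025 windows in all. The CCAAT box was in 12 (38.7%, against 39.5% of tested genes and 37.9% in all) and the antioxidant response core in 4 (12.9%, against 15.1% and 12.5%). The TEAD motif was in 2, Psmd8 and Psmd9 (6.5%, against 11.5% and 14.6%). These matches describe letters in a window and show neither binding nor its absence.

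Of the 13 genes with an ETS match, 6 rose in shYap-1 and 9 in shYap-2, and none fell. Of the 18 without one, 9 rose in shYap-1 and 12 in shYap-2, and 2 fell with each hairpin. Over all genes tested, 37.6% rose and 27.6% fell in shYap-1, and 43.2% and 30.5% in shYap-2. The share of rises was no higher with a match than without in shYap-1, and nearly the same in shYap-2. With only 2 falls among the 31 genes, their absence among the 13 cannot be weighed. The median changes were 0.26 with and 0.24 without a match for shYap-1, and 0.29 and 0.18 for shYap-2; the difference between these medians was not tested.

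In the outer ring of the core, the alpha subunits Psma1 to Psma7 shape the gate through which substrates enter. In shYap-1, 4 of the 7 rose (Psma1, Psma2, Psma5 and Psma7) and none fell, with a median change of 0.24, and in shYap-2 all but Psma6 rose, with a median of 0.22. Psma5 (chr3:108256926-108279974) had the highest change and Psma6 the lowest. Psma5 stood at 128.65, 131.97 and 127.58 FPKM in shCTRL, 169.11, 167.12 and 174.31 in shYap-1, and 163.61, 163.53 and 159.98 in shYap-2. Every knockdown library was above every control. Its change was 0.39 (SE 0.0489, adjusted p = 0.000301) in shYap-1 and 0.33 (SE 0.0293, adjusted p = 8.54e-06) in shYap-2, or 1.31-fold and 1.25-fold in FPKM + 1.

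Psma6 was among the more abundant subunit genes and did not follow its ring. It stood at 176.71, 177.41 and 177.20 FPKM in shCTRL, 179.62, 157.04 and 175.64 in shYap-1, and 169.30, 176.87 and 169.96 in shYap-2. The groups overlapped in shYap-1, and all 3 shYap-2 libraries reached at most the middle of the control range. The changes were -0.05 (adjusted p = 0.474) and -0.04 (adjusted p = 0.224). The other 5 alpha genes changed by 0.21 to 0.28 in shYap-1 and by 0.17 to 0.27 in shYap-2. Among these, Psma3 (adjusted p = 0.0965) and Psma4 (adjusted p = 0.0503) missed the threshold in shYap-1 and passed it once shYap-1 replicate 2 was left out. The rise of Psma1 in shYap-1 (0.21, adjusted p = 0.0297) was lost when any 1 of the controls, or shYap-1 replicate 1 or 3, was left out.

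The non-catalytic beta subunits Psmb1 to Psmb4 complete the inner rings around the proteolytic sites. In shYap-1, 3 of the 4 rose, with a median change of 0.36, and in shYap-2 all 4 rose, with a median of 0.29. Psmb4 (chr3:94884093-94886961), the subunit beta7, changed most. It stood at 216.02, 210.54 and 213.95 FPKM in shCTRL, 294.70, 294.78 and 295.67 in shYap-1, and 283.17, 286.18 and 275.32 in shYap-2. Groups did not overlap, and the change was 0.46 (adjusted p = 9.48e-05) and 0.40 (adjusted p = 1.87e-06). Psmb1 and Psmb2 changed by 0.37 and 0.35 in shYap-1 and by 0.30 and 0.27 in shYap-2.

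Psmb3 changed least in its ring, with 227.23, 248.02 and 254.27 FPKM in shCTRL, 266.25, 341.01 and 270.80 in shYap-1, and 264.45, 269.24 and 263.06 in shYap-2. Replicate 2 of shYap-1 was far above the other 2 libraries of its group. The change was 0.26 (adjusted p = 0.0578) in shYap-1 and 0.13 (adjusted p = 0.0207) in shYap-2, and the latter call was lost without shYap-2 replicate 2 and under either scaling.

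Within the base of the cap, the ATPases Psmc1 to Psmc6 form the ring that unfolds substrates. In shYap-1, Psmc2, Psmc3 and Psmc5 rose, and in shYap-2 Psmc1 rose as well, with median changes of 0.19 and 0.15. The calls of Psmc3 with each hairpin and of Psmc1 in shYap-2 were lost under either scaling, and those of Psmc3 in shYap-1 and Psmc1 in shYap-2 also with the GC trend removed. Psmc2, the ATPase Rpt1, stood at 97.88, 99.02 and 96.70 FPKM in shCTRL, 149.08, 128.45 and 144.63 in shYap-1, and 130.39, 128.16 and 124.68 in shYap-2. All knockdown libraries were above all controls, and the change was 0.52 (SE 0.0671, adjusted p = 0.00037) in shYap-1 and 0.38 (SE 0.031, adjusted p = 4.35e-06) in shYap-2. Psmc5, the ATPase Rpt6, changed by 0.44 and 0.31 and was called under every alternative for either hairpin.

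Psmc4 and Psmc6, the ATPases Rpt3 and Rpt4, did not pass the test with either hairpin. Psmc6 stood at 72.82, 69.79 and 65.20 FPKM in shCTRL, 75.48, 49.49 and 71.11 in shYap-1, and 67.45, 64.59 and 65.11 in shYap-2. The single low value was that of shYap-1 replicate 2, and Psmc6 has one of the lowest GC contents of the 37 genes (41.5%). The changes were -0.10 (adjusted p = 0.564) and -0.07 (adjusted p = 0.165). Those of Psmc4 were -0.06 (adjusted p = 0.359) and -0.07 (adjusted p = 0.0841). Psmc4 was called lower with each hairpin once the GC trend was removed. In shYap-2 it was also called lower under either scaling and without shCTRL replicate 1. Psmc6 was called lower in shYap-2 under either scaling and without shCTRL replicate 3.

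The non-ATPase subunits of the base carry the ubiquitin receptors and the scaffolds Psmd1 and Psmd2. The largest rise of a subunit gene with each hairpin was that of Psmd4, the receptor Rpn10, and the receptor Adrm1 (Rpn13) did not rise with it. Psmd4 stood at 154.81, 168.92 and 171.97 FPKM in shCTRL, 253.25, 305.10 and 254.56 in shYap-1, and 243.64, 254.73 and 240.00 in shYap-2. No knockdown library came near the controls. The change was 0.71 (SE 0.0864, adjusted p = 0.000277) in shYap-1 and 0.57 (SE 0.0441, adjusted p = 2.95e-06) in shYap-2, or 1.63-fold and 1.49-fold in FPKM + 1.

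Adrm1 stood at 80.25, 85.41 and 89.32 FPKM in shCTRL, 75.30, 91.01 and 74.54 in shYap-1, and 82.60, 85.39 and 87.00 in shYap-2, so that all groups overlapped. The changes were -0.09 (adjusted p = 0.425) and 0.00 (adjusted p = 0.984). Adrm1 was called lower in shYap-1 once replicate 2, the highest library of that group, was left out. A near-identical transcript of another gene, Gm9774 (99.8% identity), was listed at 0 to 0.87 FPKM in any library. Psmd2 rose with both hairpins (0.44 and 0.32), and Psmd1 changed by 0.14 (adjusted p = 0.0575) and 0.12 (adjusted p = 0.00689).

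The lid surrounds the deubiquitinase Psmd14 and held both rises and a fall. In shYap-1, 5 of its 8 genes rose and 1 fell, with a median change of 0.29, and in shYap-2, 6 rose and 1 fell, with a median of 0.27. Of the 8 genes, Psmd13, the scaffold subunit Rpn9 (chr7:140881968-140898643), had the highest change. It stood at 52.91, 54.95 and 54.78 FPKM in shCTRL, 77.57, 78.47 and 72.20 in shYap-1, and 70.55, 71.98 and 70.97 in shYap-2. Groups did not overlap, and the change was 0.48 (adjusted p = 0.000237) and 0.39 (adjusted p = 5.93e-06). Of its exonic bases, 10.1% lie opposite exons of Sirt3, and the use of strand in counting is not stated.

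Psmd14, the metalloprotease Rpn11 that cuts the ubiquitin chain from the substrate, fell. It stood at 85.84, 82.43 and 80.88 FPKM in shCTRL, 69.09, 54.57 and 66.56 in shYap-1, and 70.56, 67.32 and 66.97 in shYap-2. All 6 knockdown libraries were below all 3 controls. It fell by 0.39 (SE 0.0923, adjusted p = 0.00712) in shYap-1 and by 0.28 (SE 0.0374, adjusted p = 0.000121) in shYap-2, to 0.763 and 0.822 of the control FPKM. Psmd8, Psmd11, Psmd7 and Psmd3 rose with each hairpin, by 0.25 to 0.43 in shYap-1 and by 0.23 to 0.31 in shYap-2. Psmd12 changed by 0.26 (adjusted p = 0.0808) and 0.32 (adjusted p = 0.000178), and Psmd6 by -0.09 (adjusted p = 0.449) and 0.00 (adjusted p = 0.916). The rise of Psmd3 in shYap-1 (adjusted p = 0.0282) was lost without any 1 of the controls and under either scaling.

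**Figure D3:**
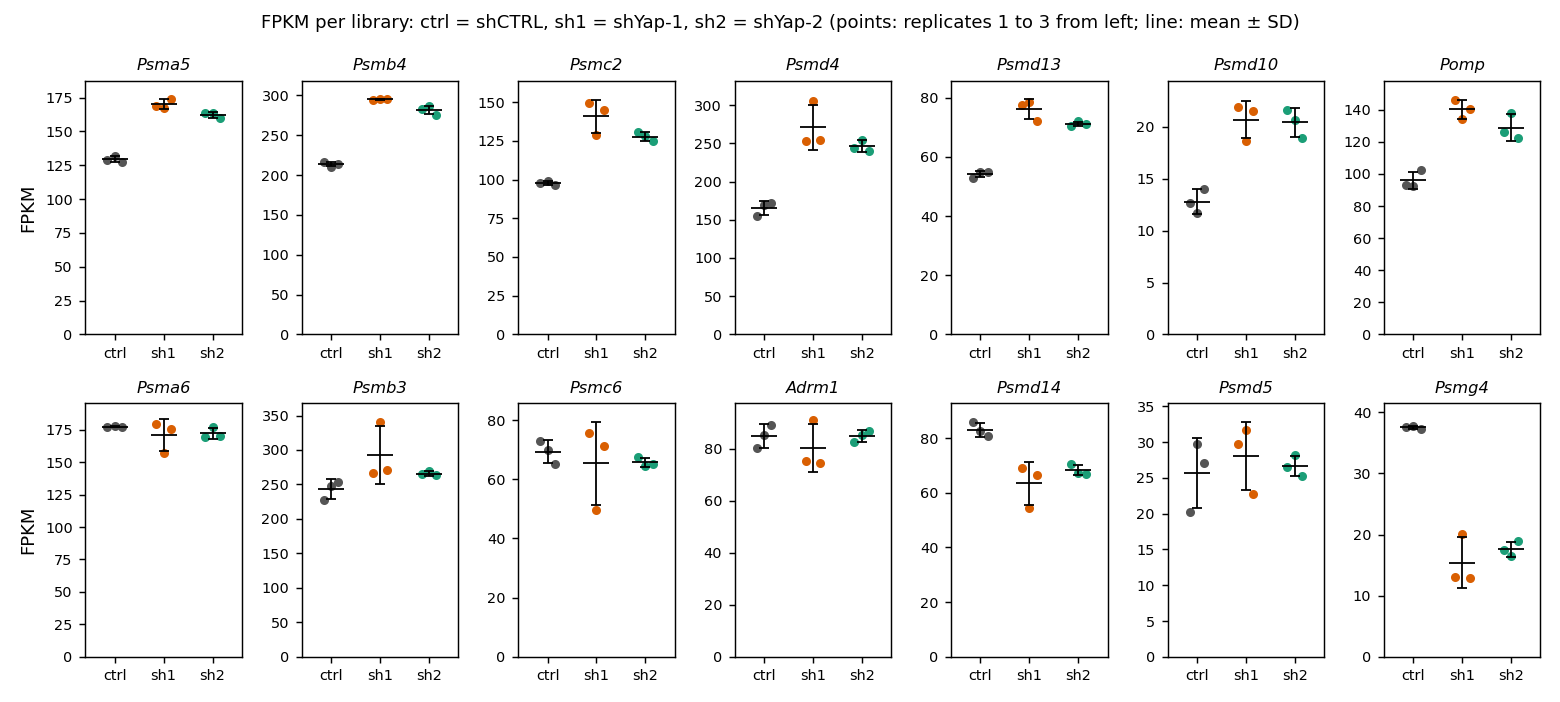
FPKM in each of the 9 libraries (points, replicates 1 to 3 from left to right) with the mean ± SD of each group of 3, for the genes with the highest change (upper panels) and the lowest change (lower panels) in each role group; axes start at 0. In the upper panels knockdown points lie above the controls, and in the lower panels only Psmd14 and Psmg4 have knockdown points wholly below them with both hairpins.

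The assembly chaperones, which are not part of the finished particle, went in both directions. Of all 8, 3 rose and 1 fell with each hairpin, a share of rises near the 37.6% (shYap-1) and 43.2% (shYap-2) of all genes. The median change was 0.084 in shYap-1 and 0.085 in shYap-2, against 0.26 and 0.23 for the 29 subunit genes. Their median control level was 22.95 FPKM, against 111.5 for the subunit genes.

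Among the base chaperones, which build the ATPase ring, Psmd10 (gankyrin) changed most. It is on chromosome X (chrX:140948429-140956728) and stood at 12.67, 11.70 and 14.06 FPKM in shCTRL, 21.94, 18.66 and 21.52 in shYap-1, and 21.67, 20.68 and 18.94 in shYap-2. The groups did not overlap. It rose by 0.65 (SE 0.0944, adjusted p = 0.000644) in shYap-1 and by 0.64 (SE 0.0738, adjusted p = 4.59e-05) in shYap-2, on about 380 to 914 fragments per library. Psmd5 stood at 20.24, 29.74 and 27.13 FPKM in shCTRL, 29.70, 31.70 and 22.68 in shYap-1, and 26.53, 28.15 and 25.31 in shYap-2, and the groups overlapped (changes of 0.12 and 0.07, adjusted p = 0.539 and 0.623). Psmd9 changed by 0.22 (adjusted p = 0.0474) and 0.10 (adjusted p = 0.124). Its call in shYap-1 was lost in 10 of 16 alternatives, among them any 1 control left out and shYap-1 replicate 2 or 3 left out, and 25.5% of its exonic bases lie opposite a lincRNA.

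The chaperones of the 20S core went in both directions. Pomp, the maturation factor that is the first substrate of the new core (chr5:147860461-147876456), stood at 93.24, 92.61 and 102.18 FPKM in shCTRL, 146.08, 134.35 and 140.43 in shYap-1, and 126.42, 138.09 and 122.20 in shYap-2. It rose by 0.54 (SE 0.0625, adjusted p = 0.000204) and by 0.42 (SE 0.0541, adjusted p = 9.07e-05), and all knockdown libraries were above the controls.

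Psmg4, which pairs with Psmg3 to guide the alpha ring, stood at 37.61, 37.72 and 37.25 FPKM in shCTRL, 13.12, 20.17 and 12.93 in shYap-1, and 17.43, 16.46 and 18.88 in shYap-2. No knockdown library came near the controls. It fell by 1.26 (SE 0.156, adjusted p = 0.000296) in shYap-1 and by 1.05 (SE 0.0523, adjusted p = 1.91e-07) in shYap-2, to 0.411 and 0.469 of the control FPKM. This was the largest change of any of the 37 genes with either hairpin. It is a short transcript of 555 exonic bases with an estimated 175 to 509 fragments per library. Its partner Psmg3 changed by 0.01 (adjusted p = 0.976) and -0.06 (adjusted p = 0.394). The other pair of the alpha ring, Psmg1 and Psmg2, changed by 0.04 and -0.19 in shYap-1 and by 0.12 and -0.10 in shYap-2. Of these 4 values Psmg1 in shYap-2 passed the test (adjusted p = 0.0365), and that call was lost in 11 of 16 alternatives, among them the omission of any 1 shYap-2 library and of shCTRL replicate 1 or 3.

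As a level, the 29 subunit genes summed to 3567 ± 30.4 FPKM in shCTRL (SD, n = 3), 4363 ± 40.6 in shYap-1 and 4173 ± 57.3 in shYap-2. The knockdown sums were 1.22 and 1.17 times the control, and no library of a knockdown group fell within the control range of 3533.7 to 3593.4. The 11 core genes and the 18 cap genes moved by nearly the same factor, 1.22 and 1.23 in shYap-1 and 1.17 and 1.17 in shYap-2. By role among the subunit genes, the factor in shYap-1 was highest in the base non-ATPase genes (1.33) and the beta genes (1.29) and lowest in the alpha genes (1.16). In shYap-2 it was 1.25 in the base non-ATPase genes, 1.21 in the beta genes and 1.13 in both the alpha genes and the ATPases. Because FPKM is relative to all mapped fragments, these factors do not give RNA per cell. The sums were taken from FPKM without either scaling and without removal of the GC trend.

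The subunit genes differed widely in RNA level. In shCTRL their mean FPKM ran from 47.11 (Psma2) to 243.97 (Psma7), a 5.18-fold range, with a median of 111.5. Of the 28 neighbouring pairs in this order, 15 overlapped in their control values, so much of the order is fine-grained. In shYap-1 the range was 56.14 to 295.05 and in shYap-2 55.52 to 281.56, and Psmb4 then had the highest mean. That of Psmb3 was close to it in shYap-1 (292.69 FPKM), and in replicate 2 both Psmb3 (341.01) and Psma7 (303.46) were above Psmb4 (294.78). Psmd14 went from rank 22 in shCTRL to rank 27 in shYap-1 and 26 in shYap-2, and Psma6 from rank 5 to rank 8 with each. Psmc2 went from rank 20 to ranks 15 and 19, and Psmd13 from rank 28 to ranks 23 and 25.

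**Figure D4:**
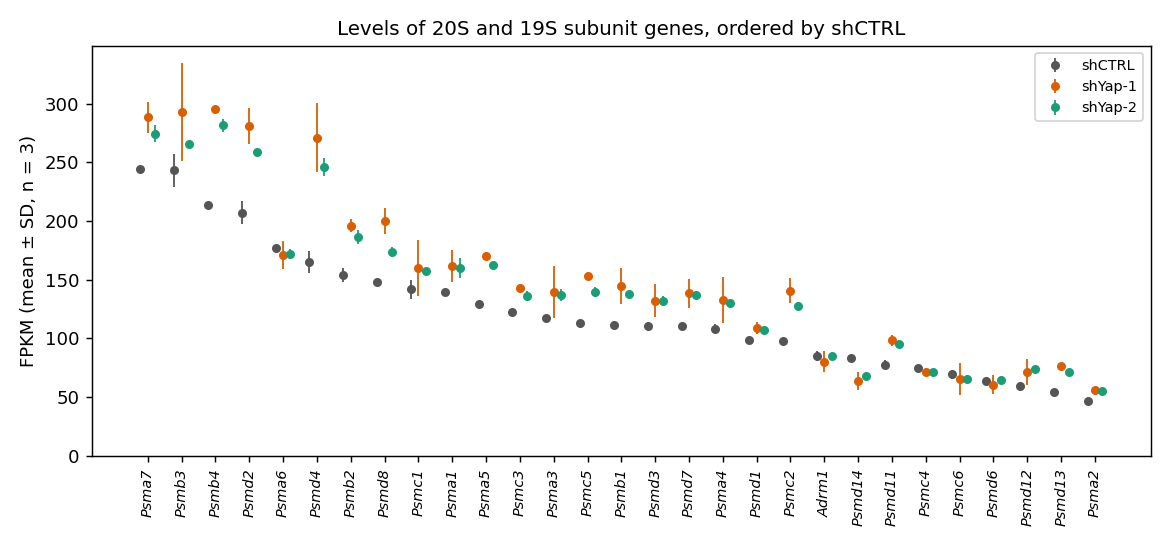
Mean FPKM with SD (n = 3) of the 29 subunit genes in each group, ordered by the shCTRL level. The knockdown points lie above the control point for most genes, while for Psma6, Psmc4, Psmc6 and Psmd14 both knockdown means are below it.

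Between the hairpins no standard proteasome gene passed the test in 1 fit of all 9 libraries with limma, where 3.29% of all genes passed (1.93% higher and 1.36% lower in shYap-2 than in shYap-1). Psmc2, Psmc5 and Psmd8 had an unadjusted p under 0.05. The median difference, shYap-2 minus shYap-1, was -0.02, and the differences ran from -0.20 (Psmd8) to 0.21 (Psmg4). The 95% intervals of the 37 differences reached from -0.39 to 0.52, with a median margin of 0.14 on either side, so differences of that size were not detectable for many genes. All 3 shYap-2 libraries lay below all 3 shYap-1 libraries for 6 genes (Psma5, Psmb4, Psmc5, Psmd13, Psmd2 and Psmd8) and above them for 1, against 13.6% and 12.3% of all genes.

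Psmd8, a lid subunit named here after its values were seen, had 192.87, 212.62 and 194.38 FPKM in shYap-1 and 168.66, 174.97 and 177.33 in shYap-2, against 149.75, 145.53 and 149.69 in shCTRL. The 3 groups did not overlap. Its difference between the hairpins was -0.20 (95% interval -0.31 to -0.09, adjusted p = 0.0554). Without shYap-1 replicate 2, 8 of the 37 genes were called between the hairpins, and 15.4% of all genes were. Psma3, Psma4, Psmb1, Psmc2, Psmc5 and Psmd8 were then lower and Adrm1 and Psmg4 higher in shYap-2.

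The catalytic subunits, which are not among the 37 genes, were compared to show where the standard genes lie. The constitutive catalytic genes Psmb5, Psmb6 and Psmb7, for the chymotrypsin-like, caspase-like and trypsin-like sites, changed by 0.12, 0.35 and 0.17 in shYap-1 and by 0.08, 0.29 and 0.15 in shYap-2. In shYap-1 Psmb6 passed the test (adjusted p = 0.00356) while Psmb5 (adjusted p = 0.058) and Psmb7 (adjusted p = 0.0627) did not, and in shYap-2 all 3 did. Under either scaling, Psmb5 in shYap-2 changed sign, to -0.01. The standard beta subunits changed by 0.26 to 0.46 and by 0.13 to 0.40.

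The inducible catalytic genes Psmb8, Psmb9 and Psmb10, which replace the constitutive ones in the immunoproteasome, also rose, each by more than any of the 37 genes with the same hairpin. Psmb8 stood at 19.72, 25.85 and 23.85 FPKM in shCTRL, 76.96, 100.29 and 82.60 in shYap-1, and 65.53, 64.04 and 65.37 in shYap-2. The changes of Psmb8, Psmb9 and Psmb10 were 1.86, 1.92 and 0.99 in shYap-1 and 1.46, 1.58 and 0.71 in shYap-2, and all passed the test. Their summed level was 65.6 FPKM in shCTRL, 180.2 in shYap-1 and 140.8 in shYap-2, against 455.5, 532.0 and 514.9 for the constitutive genes. The constitutive genes thus remained the more abundant in each group.

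**Figure D5:**
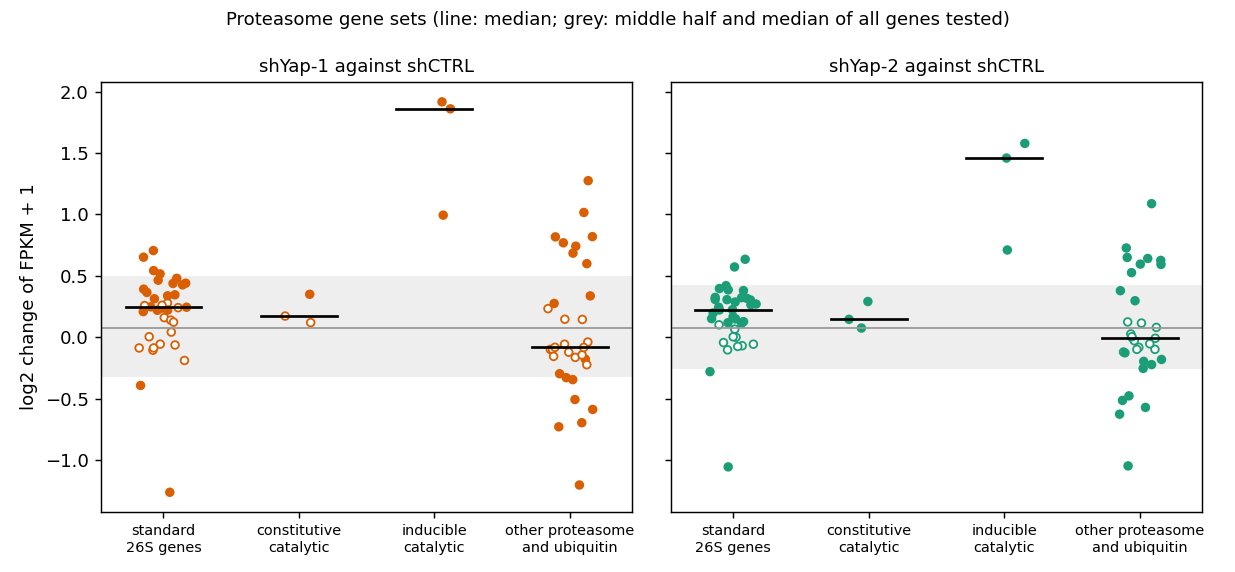
Log2 change of FPKM + 1 with each hairpin (left shYap-1, right shYap-2) for the standard 26S genes, the constitutive and the inducible catalytic genes, and other proteasome and ubiquitin genes; filled points passed an adjusted p of 0.05 and black lines are medians. The grey band runs from the lower to the upper quartile of all genes tested (-0.32 to 0.49 in shYap-1), and the median of the standard genes (0.25) lies inside it while that of the inducible genes (1.86) lies above it.

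Other genes of the proteasome and ubiquitin system rose and fell in near-equal numbers. Of 33 such genes tested, 10 rose and 9 fell in shYap-1 (median -0.08), where 37.6% of all genes rose and 27.6% fell. The counts in shYap-2 were 10 and 10 (median -0.01), where 43.2% of all genes rose and 30.5% fell, so the falls were near the background share with each hairpin. Psmf1, the proteasome inhibitor PI31, rose by 1.27 and 1.09. The polyubiquitin gene Ubb (0.82 and 0.63), the p97 cofactor gene Nploc4 (0.82 and 0.64), the NEDD8 regulator gene Nub1 (0.77 and 0.59) and the arsenite-inducible gene Zfand2a (1.02 and 0.73) also rose. Akirin2, which is needed for the import of proteasomes into the nucleus, fell by 1.20 in shYap-1 and by 1.05 in shYap-2, and Nfe2l2, the gene of NRF2, fell by 0.69 and 0.62.

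Nfe2l1, the gene of the proteasome activator NRF1, stood at 144.51, 145.76 and 137.32 FPKM in shCTRL, 164.55, 192.90 and 162.43 in shYap-1, and 135.51, 138.48 and 138.30 in shYap-2. It was above the controls in each shYap-1 library, whereas the shYap-2 libraries reached at most the lower part of the control range. The change was 0.28 (adjusted p = 0.0148) in shYap-1 and -0.05 (adjusted p = 0.182) in shYap-2. The rise was lost under either scaling, without shCTRL replicate 3 and after removal of the GC trend, where the change was 0.0511 (adjusted p = 0.36). The shYap-2 change passed the test as a fall under either scaling (-0.13 and -0.14), after removal of the GC trend (-0.25, adjusted p = 0.000189) and without shCTRL replicate 3 (-0.0782, adjusted p = 0.041). The values are RNA levels, and the activity of NRF1 was not measured.

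Near-identical transcripts from another locus were found for 9 of the 37 genes, by alignment of annotated transcripts at 95% identity or more over at least 300 bases. They belong to 17 genes, of which 1, Gm9774, had a value in the tables, so fragments of Psma2, Psma3, Psma4, Psma5, Psmb3, Psmc1, Psmd2, Psmd11 and Adrm1 may have been divided or discarded in a way the sources do not state. The matches of Psmd1 and Psmd13 were genes that share exonic bases with them at their own locus, Gm21972 and Sirt3. Others of the 37 genes also share exonic bases with a gene at their locus. Among them, 9.7% of those of Psmg3 are shared with Gm26938 on the same strand. For Psmc3, 8.2% lie opposite Slc39a13. Of the 22 calls in shYap-1, 16 were made under every alternative apart from a minimum size of 0.25, and of the 28 in shYap-2, 20 were. The calls lost under at least 1 of them were those of Psma1, Psma7, Psmc3, Psmd3, Psmd7 and Psmd9 in shYap-1, and of Psma3, Psma7, Psmb3, Psmc1, Psmc3, Psmd1, Psmd3 and Psmg1 in shYap-2. Psmd14 and Psmg4 kept their calls with each hairpin.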

How the data were processed

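The authors deposited gene values as FPKM, in 1 table per hairpin with the same 3 shCTRL libraries in each. RNA was enriched with oligo(dT), per the labels' protocols. Per the submitters' processing notes, the build was mm10 and the tools included StringTie 1.3.4, RSEM (no version), HISAT2 2.1.0 and fastp 0.18.0, with no roles. Strandedness, gene models and filters are not given in the sources used here. GENCODE vM21 gave symbols for 16951 of 16962 gene identifiers. Depth was estimated as the number of fragments that turns low FPKM values into whole fragments (largest error on simulated data 0.05 M). With FPKM alone, counting error is not modelled on its own and enters the tests only within the spread between libraries.

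Within each table, the hairpin was compared with shCTRL by limma (version 3.58.1, run in R 4.3.3), using lmFit and eBayes with an abundance trend, on log2(FPKM + 1). Genes that reached 1 FPKM in 3 or more fitted libraries were kept, with a Benjamini-Hochberg threshold of 0.05. The test between hairpins used 1 fit of 9 libraries. The fits were tested on simulated data with few changed genes and no GC trend, unlike these data. That run does not show how often the calls here are right. The log2 scale understates changes of genes with low FPKM. Alternatives were a pseudocount of 0.1, no filter or FPKM of at least 5, trimmed-mean and median-of-ratios scaling, no trend, a replicate block, removal of a GC trend, each library left out, other sets of fitted libraries and a minimum change of 0.25. Python 3.11.15, numpy 2.4.6, pandas 2.3.3, matplotlib 3.10.9 and minimap2 2.31 served for values, figures and transcript alignment.

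Values per library are given for the gene of highest and of lowest mean change in each role group. The catalytic subunits, Yap1, Nfe2l1 and the 8 most changed ubiquitin system genes called with both hairpins are also named, except 1 that is not reported here. The members and lists were chosen with earlier results of these data known.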

Additional observations from a re-analysis of the deposited data

Results flagged for a closer look

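Nfe2l1 differed between the hairpins in the fit of all 9 libraries: shYap-2 minus shYap-1 was -0.33 (SE 0.0649, 95% interval -0.47 to -0.18, adjusted p = 0.0305 with limma). The adjusted p missed 0.05 when any 1 of the 3 controls, shYap-1 replicate 3 or any 1 shYap-2 library was left out (0.0514 to 0.137), and the difference was -0.25 (adjusted p = 0.00239) without shYap-1 replicate 2. Zfand2a, which rose with each hairpin, also differed between them, by -0.29 (SE 0.0437, adjusted p = 0.0128), with 57.99, 60.24 and 57.26 FPKM in shYap-1 and 47.09, 48.11 and 47.87 in shYap-2. That adjusted p was 0.0702 to 0.0801 when a shYap-2 library was left out. In a fit of the 6 knockdown libraries alone, the adjusted p was 0.101 for Nfe2l1 and 0.0751 for Zfand2a. The epithelial marker Krt14 also passed the test between the hairpins, with a difference of -0.43 (SE 0.0705, adjusted p = 0.0163 with limma). Alternatives are not given for Krt14. No other proteasome or ubiquitin gene examined passed this test, and neither did Yap1 or the other epithelial markers.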

How the results depend on the processing

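Over all alternatives and the 37 genes, 1 of 592 values in shYap-1 and 2 of 592 in shYap-2 changed sign from a called value or became a call of opposite sign, and 33 and 39 calls were lost; uncalled values crossed 0 in 13 and 16 more cases, and in 38 between the hairpins. With the GC trend removed, Psmd3 in shYap-1 became -0.0218, and in shYap-2 Psmc3 became -0.0245, Adrm1 -0.24 and Psmb5 -0.16; Psmb5 was -0.0072 in shYap-2 under trimmed-mean and -0.0123 under median-of-ratios scaling. Removal of the GC trend gave 4 falls in shYap-1, 5 falls in shYap-2 and 2 lower genes between the hairpins. Over all genes the lower shares were 35.9%, 36.7% and 6.0%. Either scaling gave 6 falls in shYap-2, where 36.4% or 36.7% of all genes fell. A minimum change of 0.25 left 14 rises in shYap-1 and 15 in shYap-2, where 35.9% of all genes rose with each hairpin. FPKM of at least 5 gave 1 lower gene between the hairpins (Psmd8), against 1.9% of all genes.

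With 1 library left out, rises and falls numbered 17 to 25 and 2 to 3 in shYap-1 and 24 to 26 and 2 to 3 in shYap-2. Between the hairpins, 0 to 2 genes were higher and 0 to 6 lower, the extremes without shYap-1 replicate 2. Over all genes the calls between the hairpins numbered 353, against 0 in the 6 knockdown libraries alone, 1355 with the GC trend removed, 1646 without shYap-1 replicate 2 and 1 to 3 without a shYap-2 library.

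Same-numbered libraries are not known to be paired: their deviations correlated at 0.344, 0.039 and -0.237 between shCTRL and shYap-1 and at -0.011 to 0.03 between shCTRL and shYap-2. A replicate block gave 22 rises and 2 falls in shYap-1, 25 and 2 in shYap-2, and 0 and 0 between the hairpins, where calls over all genes went from 353 to 141.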
